A study of Homo sapiens with 6 samples.

Results

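The atypical cadherin genes of the Fat, Dachsous and CELSR families were taken from 2 deposited expression tables by their gene symbols: FAT1, FAT2, FAT3, FAT4, DCHS1, DCHS2, CELSR1, CELSR2 and CELSR3, 9 of 52401 genes. All 9 were listed in both tables, and 8 of them carried an adjusted p-value in the first. RNA came from MCF10A, an immortalised, non-tumorigenic human breast epithelial line, in 2 stable derivatives with 3 libraries each. The control line carried 1 retroviral vector encoding mCherry and had been selected with puromycin. The flotillin line carried 2 retroviral vectors, encoding Flotillin1-HA and Flotillin2-mCherry, and had been selected with puromycin and hygromycin. Both lines grew in the same medium with horse serum, insulin, EGF, hydrocortisone and cholera toxin. Each group is a single derived line, so flotillin level, number of vectors and hygromycin selection cannot be told apart, and the labels do not say whether the 3 libraries of a line came from separate cultures. P-values therefore measure the spread between these libraries, which may be technical. The comparison asks how these genes differ when flotillin 1 and flotillin 2, scaffold proteins of membrane microdomains, are raised together.

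Fat and Dachsous proteins are very large cadherins with long chains of extracellular cadherin repeats. They bind each other across cell borders, a contact tuned by the Golgi kinase Four-jointed (FJX1 in humans), and they feed into the Hippo growth pathway and into planar cell polarity, the alignment of cells within the plane of an epithelium. CELSR proteins, the vertebrate counterparts of Flamingo, combine cadherin repeats with a membrane-spanning part of the adhesion G protein-coupled receptor type. They bind like molecules on the neighbouring cell and work with Frizzled and Vangl proteins in the core planar polarity complex.

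The deposited group means allowed the 3 libraries behind each mean to be recovered as whole counts, and the recovered libraries hold between 17445130 and 18629354 counts in genes solved in both groups. Libraries are numbered 1 to 3 within a group by falling size factor, the factor that scales each library for depth, since the recovered columns carry no replicate labels. As a check of the labels, FLOT1 had deposited means of 1474 in control and 16771 in flotillin cells, and FLOT2 of 3727 and 41052 normalized counts. In each group library 3 correlated less with libraries 1 and 2 than these did with each other. Correlations were Pearson r of log2(normalized count + 1) across genes, which are not replicates. In control cells r was 0.93 with each, against 0.96 between libraries 1 and 2. In flotillin cells the gap was smaller, at 0.964 and 0.956 against 0.981. Control library 3 correlated with flotillin library 3 at r = 0.92, against 0.90 with each of flotillin libraries 1 and 2. Single zeros also occurred at high expression. In 46 genes a library was listed at 0 while another library of its group reached at least 200 normalized counts. These include genes that every cell uses, such as PSMA1, a proteasome subunit gene listed at 0 in flotillin libraries 1 and 2 beside 4963 in the third, and CCT8, a chaperonin subunit gene listed at 0 in control library 3 beside up to 4205. Both examples were chosen after their values were seen. FAT2 is the gene of the 9 that this touches.

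FAT2 and CELSR2, the members with the largest ratios between the group means, are shown by the 250 bases before their RefSeq gene start in GRCh38.p14, to give the sequence context of the genes on which the results turn. The FAT2 stretch is chr5:151591332-151591581 on the minus strand and the CELSR2 stretch chr1:109249289-109249538 on the plus strand, each printed 5′ to 3′ in the direction of the gene. Capitals mark every CANNTG, the general E-box.
FAT2: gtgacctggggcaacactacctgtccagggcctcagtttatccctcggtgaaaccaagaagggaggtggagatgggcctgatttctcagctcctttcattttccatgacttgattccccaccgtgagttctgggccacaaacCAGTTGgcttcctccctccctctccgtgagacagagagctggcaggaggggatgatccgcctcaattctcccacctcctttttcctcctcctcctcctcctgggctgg
CELSR2: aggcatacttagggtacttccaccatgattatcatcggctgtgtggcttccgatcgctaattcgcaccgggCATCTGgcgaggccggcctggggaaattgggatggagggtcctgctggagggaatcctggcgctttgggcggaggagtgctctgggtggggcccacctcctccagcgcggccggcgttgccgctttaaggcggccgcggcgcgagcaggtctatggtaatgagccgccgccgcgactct
Each stretch holds 1 CANNTG, at position -108 from the gene start in FAT2 and -179 in CELSR2. Of 35116 promoters of the same length 61.8% hold at least 1 CANNTG. The E-box form CAGGTG, to which ZEB and Snail repressors are known to bind, was searched on both strands and overlaps CANNTG by definition. It was found in none of the 6 upstream stretches listed for 5 of the members (FAT1 has 2 starts, and FAT2, DCHS2, CELSR2 and CELSR3 have 1 each) and in 17.5% of all promoters. GGAATG, the core of the motif bound by TEAD factors, was absent from the same 6 stretches and present in 11.9% of all promoters on either strand. GC content was 56.8% for FAT2 and 64.4% for CELSR2, beside a median of 58.0% over all promoters.

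FAT1, which encodes a Fat cadherin that organises actin at cell edges, was the most abundant member in the flotillin line (ENSG00000083857, chromosome 4, 187508937 to 187647876 in GRCh37). Its control libraries 1 to 3 held 7232, 10669.5 and 11397 normalized counts, and its flotillin libraries 4025, 3156 and 9104. Flotillin libraries 1 and 2 lay below every control library, while flotillin library 3 lay between the control values, so the groups overlapped. The means were 9766 ± 2225 and 5429 ± 3213 (SD, n = 3), and the authors' deposited log2 fold change was -0.78 with an adjusted p of 0.136. In limma, which fits a linear model to each gene's recovered libraries as log2(normalized count + 1), the difference was -0.98 (95% interval -1.90 to -0.05, adjusted p = 0.109). Without library 3 of both groups it was -1.30 with a limma adjusted p of 0.00205, and in that fit 44.1% of all genes passed. Leaving out flotillin library 3 alone gave -1.43 with a limma adjusted p of 0.0177, in a fit whose share over all genes is not given.

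FAT2, a Fat cadherin gene known from squamous and epidermal epithelia (ENSG00000086570, chromosome 5, 150883654 to 150948505 in GRCh37), showed the widest separation of levels and the least agreement between tests. Control library 1 held 15660.5 normalized counts and control library 3 held 11981, whereas control library 2 is listed at 0. The flotillin libraries held 32.0, 26.3 and 17.5 normalized counts. Thus 2 of 3 control libraries lay far above all flotillin libraries, and the remaining control library lay below them. The authors' deposited means were 9214 and 25.3, a 365-fold lower mean in flotillin cells, or -8.51 on the log2 scale. Their deposited log2 fold change, which is not the log2 ratio of the means, was much nearer to 0, at -1.15, and its adjusted p was 0.208. Their Tuxedo table lists FAT2 at 39.4 FPKM in control and 0.0654 FPKM in flotillin cells, with a log2 fold change of -9.24 and a q-value of 0.000804. Of all genes tested there, 16.9% passed in either direction and 10.0% as lower.

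The limma result for FAT2 turned on that zero. With all 6 libraries the FAT2 difference was -4.49 with a standard error of 4.30 and an adjusted p of 0.479. Without control library 2 it was -9.07 with a standard error of 0.31 and a limma adjusted p of 0.000716, in a fit where 10.1% of genes passed and 5.76% passed as lower. With every isolated zero of the series set to missing, an alternative chosen after seeing the data, the limma adjusted p was 4.42e-05, and 23.8% of genes passed, 11.3% as lower. Over the 2 control libraries with counts, the mean was 13821 normalized counts, 547 times the flotillin mean. FAT2 did not pass in the authors' deposited table of means (adjusted p = 0.208), so it is given by its values and is not counted among the falls.

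FAT4, the Fat cadherin known as the main partner of DCHS1 in mammals, was the member with the highest deposited fold change (ENSG00000196159, chromosome 4, 126237554 to 126414087 in GRCh37). Control libraries held 343, 425 and 744 normalized counts and flotillin libraries 820.1, 546 and 1825. Flotillin library 2 lay below control library 3, so the groups overlapped, and library 3 was the highest in each group. Means were 504 ± 212 and 1064 ± 673 (SD, n = 3), with a deposited log2 fold change of 0.97 and an adjusted p of 0.0890. The limma interval of the difference ran from -0.13 to 2.07 (adjusted p = 0.167), and without library 3 of both groups the difference was 0.81 with an adjusted p of 0.0251.

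FAT3, a Fat cadherin known from neurons and muscle, stayed near the lower end of detection (ENSG00000165323, chromosome 11, 92085262 to 92629636 in GRCh37). Control libraries held 18.0, 24.9 and 20.7 normalized counts and flotillin libraries 21.0, 20.3 and 19.5. The flotillin values lay inside the control range, and the deposited adjusted p was 0.936. The limma interval of the difference ran from -0.80 to 0.70 on the log2 scale.

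**Figure D1:**
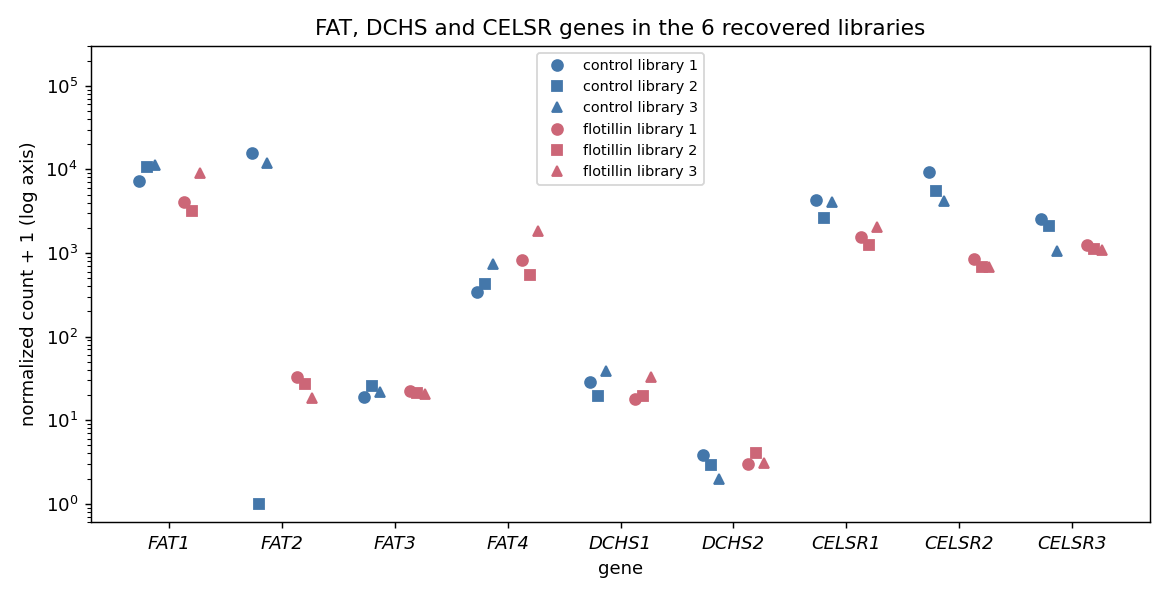
Normalized count + 1 of each gene (log axis) in the 3 control and 3 flotillin libraries; each point is 1 library, and 0 counts plot at 1. CELSR1 and CELSR2 are the genes whose groups do not overlap, and FAT2 has 1 control library at 0 beside 15660.5 and 11981.

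The Dachsous genes were scarce in both lines. DCHS1, the Dachsous ligand of FAT4 (ENSG00000166341, chromosome 11, 6642556 to 6677085 in GRCh37), held 27.5, 18.2 and 37.5 normalized counts in control libraries and 17.002, 18.2 and 31.9 in flotillin libraries. Library 3 was the highest in each group, and the groups overlapped almost fully. The deposited log2 fold change was -0.28 with an adjusted p of 0.707, and the limma interval ran from -1.26 to 0.67. DCHS2, the second Dachsous gene (ENSG00000197410, chromosome 4, 155155527 to 155412930 in GRCh37), had 3, 2 and 1 counts in control and 2, 3 and 2 counts in flotillin libraries. It has no deposited adjusted p, and a difference was not detectable at counts this low.

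CELSR2 fell. This CELSR cadherin gene (ENSG00000143126, chromosome 1, 109792641 to 109818377 in GRCh37) held 9351, 5537 and 4142 normalized counts in control libraries and 849, 673 and 677 in flotillin libraries. Every control library lay above every flotillin library, and control values spread over a 2.26-fold range against 1.26-fold in flotillin cells. The means, 6343 ± 2697 and 733 ± 100.4 (SD, n = 3), differed 8.65-fold. The authors' deposited log2 fold change was -2.95 (adjusted p = 7.45e-17) in the table of means and -3.28 (q = 0.000804) in the Tuxedo table. In limma the difference was -3.04 with a standard error of 0.30 (adjusted p = 0.00106), and it kept passing with each library left out in turn, between -3.30 and -2.71.

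CELSR1 also fell. The gene, whose mouse counterpart is known for orienting hair follicles and closing the neural tube (ENSG00000075275), held 4282.5, 2612 and 4084 normalized counts in control and 1539, 1237 and 2031 in flotillin libraries. The groups did not overlap, although control library 2 came close to flotillin library 3. Means were 3659.6 ± 913 and 1603 ± 401 (SD, n = 3), a 2.28-fold difference, and the deposited log2 fold change was -1.14 (adjusted p = 0.00173). In the authors' Tuxedo table CELSR1 has a log2 fold change of -1.41 and does not pass, at a q-value of 0.106. The limma adjusted p was 0.0198 with all libraries, and 0.0668, 0.0763 and 0.0819 without control library 1, flotillin library 1 and flotillin library 2. Its locus in the Tuxedo table, chromosome 22, 46546424 to 47134158 in GRCh37, joins CELSR1 with 13 neighbours. Among these, in the authors' deposited table, CERK and TTC38 were higher, with log2 fold changes of 0.89 (adjusted p = 0.000325) and 0.62 (adjusted p = 0.0167), and TRMU and GRAMD4 were lower, with -0.81 (adjusted p = 0.00240) and -1.01 (adjusted p = 0.00419).

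CELSR3, known for its part in axon tract formation (ENSG00000008300, chromosome 3, 48673902 to 48700348 in GRCh37), held 2532, 2112 and 1066 normalized counts in control and 1246, 1112 and 1089 in flotillin libraries. The flotillin libraries lay within 1.14-fold of each other, and control library 3 lay at their level while control libraries 1 and 2 lay above it. Means were 1903 ± 755 and 1149 ± 85.1 (SD, n = 3), and the deposited log2 fold change was -0.69 with an adjusted p of 0.118. The limma interval was -1.36 to 0.09 (adjusted p = 0.166). Without control library 3 the difference was -1.01 with a limma adjusted p of 0.00492, and without library 3 of both groups it was -0.97 with one of 0.00251. In the latter fit 44.1% of all genes passed, and for the former no share over all genes is given. Without control library 1 the difference was -0.39 with a limma adjusted p of 0.413.

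**Figure D2:**
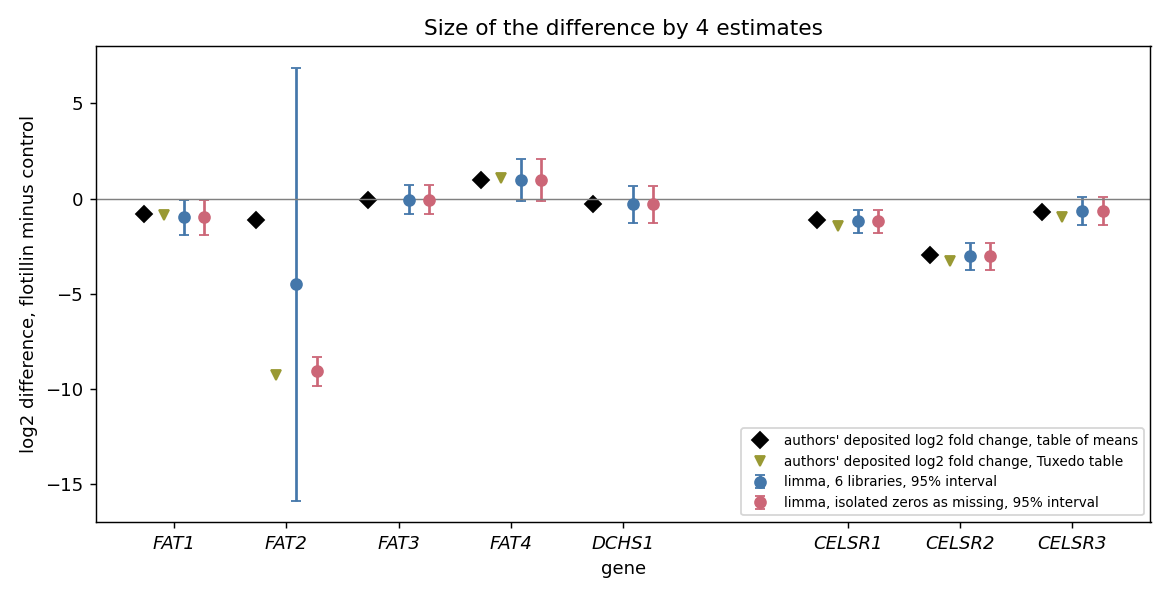
Log2 difference of flotillin minus control for 8 genes (DCHS2 is left out for its low counts), with diamonds and triangles for the authors' 2 deposited fold changes and circles with 95% intervals for limma on the recovered libraries. FAT2 spans -1.15 to -9.24 between estimates, which are not computed alike, while CELSR2 lies between -2.95 and -3.28 in all of them.

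In total, 2 of the 8 tested members fell and 0 rose in the authors' deposited table of means, where 23.6% of all tested genes passed, 12.0% as lower and 11.6% as higher. At an unadjusted p under 0.05, 4 members were lower and 1 was higher, FAT4, in that table, beside 17.7% and 17.3% of all tested genes. Limma with all libraries placed 3 members lower and 0 higher at that unadjusted threshold, beside 18.8% and 21.2% of all genes. The median deposited log2 fold change of the 8 was -0.74, beside -0.04 over all 19733 tested genes. The groups did not overlap for 2 members, both lower in flotillin cells. Among 15839 genes with a mean of at least 10, 45.1% had groups that did not overlap, 21.0% with the flotillin libraries lower. The Tuxedo table also called 2 members lower, of 6 tested there, but its pair was FAT2 and CELSR2. Of all genes tested there, 16.9% passed in either direction and 10.0% as lower. Limma called 2 members lower with all libraries, where 23.2% of genes were called, 11.1% as lower. Without library 3 of both groups it called 4 lower, namely FAT1, CELSR1, CELSR2 and CELSR3, with 20.5% of all genes called lower, and 1 higher, FAT4, with 23.6% called higher.

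**Figure D3:**
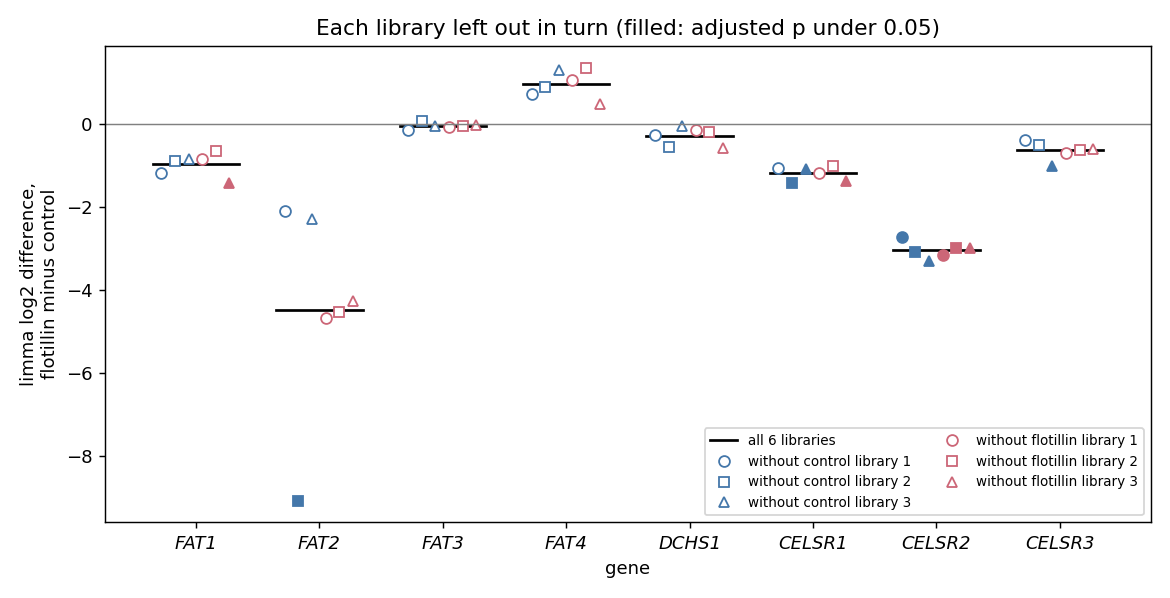
Limma log2 difference of 8 genes (DCHS2 is not in the fit) with all 6 libraries (line) and with each library left out in turn (points, filled where the adjusted p is under 0.05). FAT2 moves from -4.49 to -9.07 without control library 2, FAT1 is called without flotillin library 3, and CELSR3 is called without control library 3. For the fits that call FAT1 and CELSR3 no share over all genes is given.

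Library 3, the library with the lowest size factor of its group, moved with several of these values. The libraries so numbered in control and flotillin cells have no known link by replicate. FAT1, FAT4, DCHS1 and CELSR1 exceeded the average of the other libraries there in both groups. For FAT1 the ratio was 1.27 in control and 2.54 in flotillin cells, and for FAT4 it was 1.94 and 2.67. CELSR2, CELSR3 and FAT3 were lower there in both groups, with CELSR3 at 0.46 and CELSR2 at 0.56 times the mean of the other control libraries. FAT3 was only slightly lower, at 0.97 in control and 0.95 in flotillin cells. FAT2 and DCHS2 were left out of these 7 members. FAT2 went in opposite directions, with 1.53 in control, where library 2 is listed at 0, and 0.60 in flotillin cells. DCHS2, at 1 to 3 counts, had ratios of 0.41 and 0.82. Across 15839 genes, 36.9% exceeded that average in both groups and 35.03% lay below it in both. Fits without library 3, given above, show how the FAT1, FAT4 and CELSR3 differences move without it. Passing in the fit without library 3 of both groups is not particular to them, since 44.1% of all genes passed there against 23.2% with all libraries. For the fits without control library 3 alone or flotillin library 3 alone no share over all genes is given. The part of library 3 in these results was not tested further.

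Levels were compared between genes as normalized counts per kb of the longest GENCODE v29 transcript, since the 9 transcripts run from 10534 bases for CELSR2 to 19030 for FAT3. In control cells FAT2 stood at 1078 and 824 per kb in libraries 1 and 3. FAT1, at 489 to 771, and CELSR2, at 393 to 888, overlapped. CELSR1 followed at 229 to 376 and CELSR3 at 89.2 to 212, each below its predecessor in every library. FAT4 lay at 21.3 to 46.2 per kb, DCHS1 at 1.69 to 3.49, FAT3 at 0.95 to 1.31 and DCHS2 at 0.058 to 0.17, with no overlap between these neighbours. The FPKM of the Tuxedo table, which carry no spread, put FAT1 first at 78.1, then FAT2 at 39.4, CELSR2 at 32.3, CELSR1 at 21.3, CELSR3 at 14.002 and FAT4 at 1.64.

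The order differed in flotillin cells. FAT1 was first at 213 to 616 per kb, and CELSR1 was next at 109 to 178, above CELSR3 at 91.1 to 104 and CELSR2 at 63.9 to 80.6. The FAT4 range, 33.9 to 113 per kb, overlapped those of all 3 CELSR genes, although FAT4 lay below CELSR1 in every flotillin library. FAT2, at 1.20 to 2.20, overlapped DCHS1, at 1.58 to 2.96, and lay above FAT3 at 1.03 to 1.10 and DCHS2 at 0.12 to 0.18.

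The make-up of each family differed accordingly. CELSR2 formed 60.2%, 56.4% and 46.8% of the summed CELSR level per kb in control libraries 1 to 3, and 25.2%, 24.1% and 19.3% in flotillin libraries 1 to 3. The CELSR3 share was 14.4%, 19.0% and 10.6% in control and 32.6%, 35.02% and 27.3% in flotillin libraries. Neither of these sets of shares overlapped between groups. Shares within a family depend on each other, so a lower CELSR2 level raises the shares of the other CELSR genes. The CELSR3 level itself had a lower mean in flotillin cells, with a deposited adjusted p of 0.118. The same dependence holds for the FAT shares below. The CELSR1 shares did overlap, at 25.5%, 24.6% and 42.6% in control and 42.2%, 40.9% and 53.4% in flotillin libraries. The summed CELSR level ranged from 841 to 1476 per kb in control and from 265 to 334 per kb in flotillin libraries, given here without a test. In the FAT family, FAT4 formed 1.34%, 3.52% and 2.81% of the sum in control libraries and 15.6%, 13.5% and 15.5% in flotillin libraries. FAT1 formed 83.4%, 85.3% and 84.2% of the FAT sum in flotillin libraries. In control cells it formed 30.8% and 46.9% in libraries 1 and 3, and 96.3% in library 2, where FAT2 is listed at 0.

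**Figure D4:**
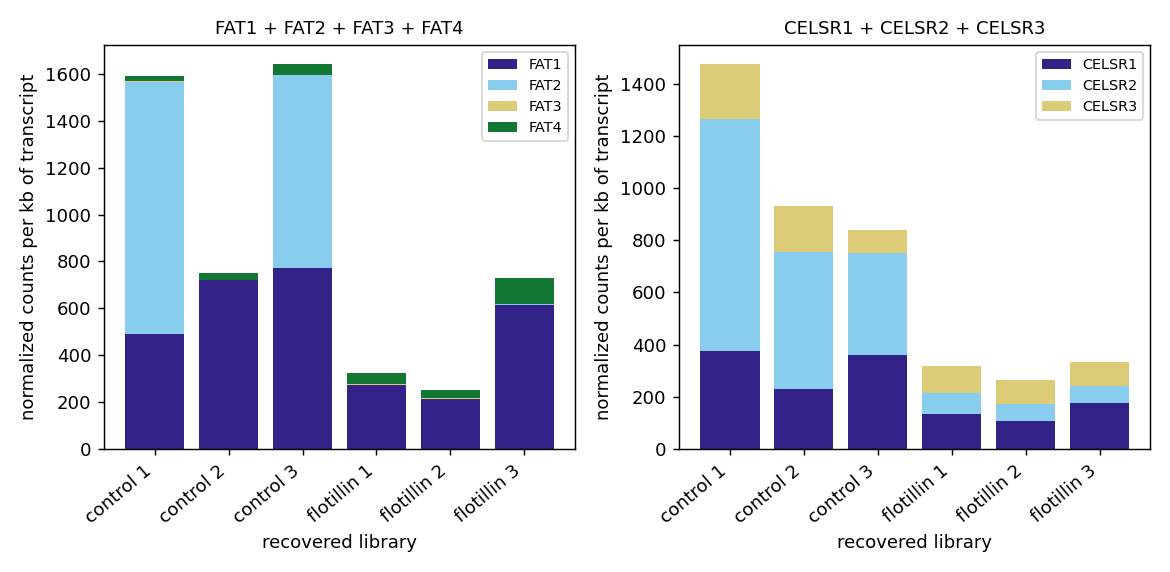
Normalized counts per kb of the longest transcript (linear axis from 0), stacked by gene for the FAT genes (left) and CELSR genes (right) in each recovered library. Summed CELSR levels are 841 to 1476 in control and 265 to 334 in flotillin libraries, and the FAT2 block is missing in control library 2.

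Genes known to act with these cadherins were read from 3 lists. Of 18 tested planar cell polarity partners, 4 fell and 0 rose in the authors' deposited table (22.2% against 12.0% of all tested genes), with -0.29 as the median log2 fold change. VANGL2, a core polarity membrane protein gene, held 380.4, 295 and 228 normalized counts in control and 2.00, 0 and 9.25 in flotillin libraries, a log2 fold change of -5.44 (adjusted p = 2.70e-26). The Tuxedo table gives VANGL2 a q-value of 0.239 and the receptor gene FZD3 one of 0.593, so neither passes there. It calls 2 of the 18 genes of the list lower, beside 10.0% of all genes tested there. The Frizzled receptor genes FZD3 and FZD6 fell 2.85-fold and 1.87-fold, with adjusted p-values of 5.88e-09 and 0.000249 in the authors' deposited table. PTK7, a polarity co-receptor gene, fell 2.33-fold (adjusted p = 0.000353). VANGL1, the paralog of VANGL2, had means of 2964 and 2345 with an adjusted p of 0.567. The genes of the cytoplasmic Dishevelled proteins, DVL1, DVL2 and DVL3, did not pass, with adjusted p-values of 0.978, 0.344 and 0.422.

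Of 11 tested Fat and Dachsous partners 1 rose and 0 fell (9.09% and 0%, beside 11.6% and 12.0% of all tested genes), with a median log2 fold change of 0.12. The gene that rose was LIX1L, a relative of the fly gene lowfat, whose product binds the tails of Fat and Dachsous. It went from 1011 ± 55.1 to 2433 ± 55.8 normalized counts (SD, n = 3), 2.41-fold, with a deposited adjusted p of 6.09e-09 and a Tuxedo q-value of 0.0636. FJX1, the Four-jointed kinase gene, had means of 814 and 572 with an adjusted p of 0.189. The genes of the Ena and VASP actin regulators that bind the FAT1 tail, ENAH and VASP, had adjusted p-values of 0.183 and 0.202 in the authors' deposited table. Without library 3 of both groups limma called 4 of these partners higher and 1 lower, in a fit where calls over all genes also went from 23.2% to 44.1%.

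In the Hippo pathway 5 of 25 tested genes rose and 2 fell, beside 11.6% and 12.0% of all tested genes, with a median log2 fold change of 0.18. WWTR1, the transcriptional co-activator TAZ, rose 2.71-fold (adjusted p = 1.10e-07), and AMOTL2, an angiomotin-like gene, 2.55-fold (adjusted p = 0.000385). The kinase gene LATS2 rose 1.86-fold (adjusted p = 0.000276). The DNA-binding partner gene TEAD1 and the scaffold gene SAV1 rose 1.58-fold and 1.45-fold, with deposited adjusted p-values of 0.0467 and 0.0477, and neither passes in limma (0.0534 and 0.0531) or in the Tuxedo table (q = 0.0743 and 0.226). WWC1, the KIBRA scaffold gene, fell 2.20-fold (adjusted p = 0.000370) and LIMD1 1.58-fold (adjusted p = 0.0229). YAP1, the partner co-activator gene, had means of 4044 and 5483 with an adjusted p of 0.183, and the kinase gene LATS1 had means of 618 and 695 with one of 0.684. The Tuxedo table calls 2 of 24 tested Hippo genes higher and 1 lower, and there WWTR1 (q = 0.0669) and LIMD1 (q = 0.428) do not pass. Of all genes tested there, 16.9% passed in either direction and 10.0% as lower. Limma called 3 of 24 Hippo genes higher and 2 lower with all libraries, where 23.2% of all genes were called, 11.1% as lower. Without library 3 of both groups it called 8 and 3, where 23.6% and 20.5% of all genes were called.

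Other cadherins were read beside these genes. Of 10 tested classical cadherins 2 fell and 1 rose (20% and 10%, beside 12.0% and 11.6% of all tested genes), with a median log2 fold change of -0.32. CDH1 (E-cadherin) fell 223-fold and CDH3 (P-cadherin) 13.9-fold, and CDH2 (N-cadherin) rose 3.49-fold. The authors' deposited table puts them at -7.31, -3.69 and 1.72 on the log2 scale, each nearer to 0 than the log2 ratio of its means. Of 8 tested non-clustered protocadherins 1 fell, PCDH1 (45.9-fold), and 2 rose, PCDH9 (7.48-fold) and PCDH18 (4.14-fold), which is 12.5% and 25% of the list beside the same background. PCDH18 does not pass in the Tuxedo table (q = 0.350). No test of the difference between these families was made.

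**Figure D5:**
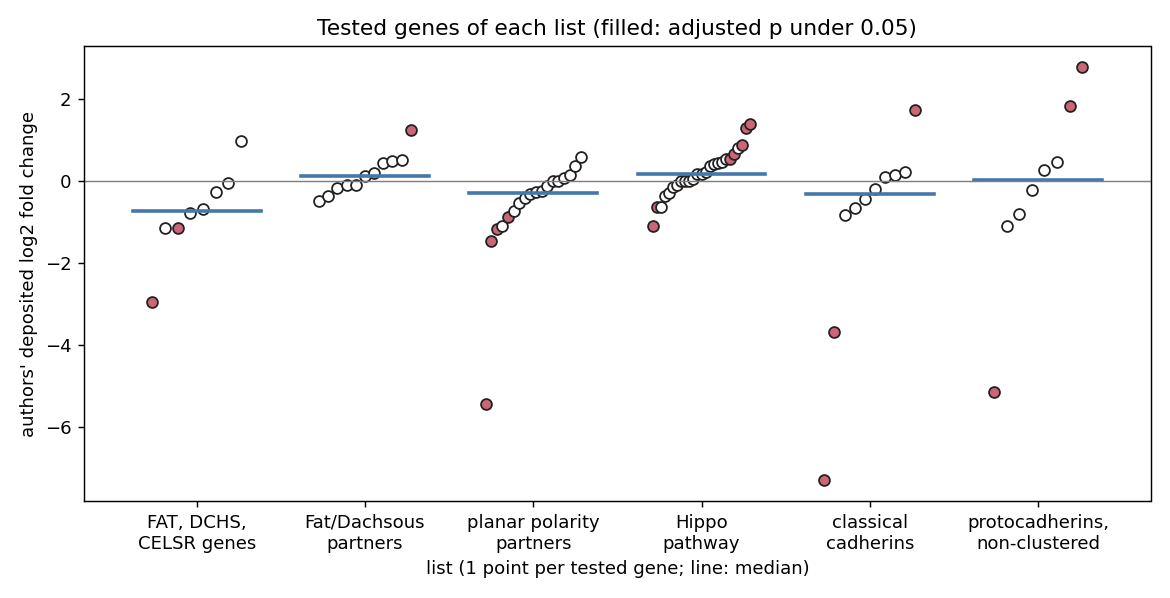
Authors' deposited log2 fold change of each tested gene (points, filled where the adjusted p is under 0.05) in the 9-gene set and 5 further lists, with the list median as a line. Median values are -0.74 for the 9-gene set, 0.12, -0.29 and 0.18 for the partner and Hippo lists, and -0.32 and 0.02 for the other cadherins.

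The genes whose values ran most like each member over the 6 libraries were found by Pearson r of log2(normalized count + 1) among 11305 genes with a mean of at least 100. They were TMEM181 and ANKRD36BL1 for FAT1, USP13 and ROCK1 for FAT4, DUSP7 and FAM83F for CELSR1, GPR143 and DEF6 for CELSR2, and ZCCHC14 and ANKRD29 for CELSR3, each at an r of 0.99 to 1.00. GPR143 held 524, 274 and 200.4 normalized counts in control and 25.0, 20.3 and 21.6 in flotillin libraries, the same order of libraries within the control group as CELSR2. For FAT2 the 2 closest were LMAN2 and GUK1 at r = 0.99 for both, a ranking that rests on the zero of control library 2. The r values share libraries and the group difference, and with 6 points high values are common: 414 genes exceeded 0.95 for CELSR2.

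Markers were read as a check on the cells. Of the epithelial markers, KRT5 had means of 48381 and 67351 normalized counts, and KRT18, a keratin of simple epithelia, of 4916 and 5051, while KRT14, TP63, EPCAM and CDH1 fell (4 of 7 tested). The KRT14 fall did not pass in limma (adjusted p = 0.134). KRT8, the partner keratin of KRT18, had means of 2043 and 3494, with an adjusted p of 0.259 in the authors' table of means and a q-value of 0.0338 in their Tuxedo table. Of 5 tested fibroblast markers 3 rose, PDGFRB, DCN and LUM, and 1 fell, COL1A1. The defining genes PDGFRA and COL1A2 lay at means of at most 4.48 in both groups. The deposited means of all 6 sum to 4967 in control and 42694 in flotillin cells, of which DCN alone holds 4659 and 42467. Of the endothelial markers VWF and CDH5 lay at means of at most 2.59, while KDR had means of 641 and 588 and TEK of 52.1 and 36.4, with 0 of the 2 tested passing. Of the immune markers PTPRC and CD3E lay at means of at most 2.56, and CD68 had means of 753 and 1309 (adjusted p = 0.189). ITGAM fell, with deposited means of 27.1 and 1.35 (adjusted p = 0.00767). The part of any other cell type in the values of the 9 genes was not tested. In bulk RNA, fewer cells with a transcript and less transcript per cell cannot be told apart.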

How the data were processed

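RNA-seq of 3 control and 3 flotillin libraries was deposited by the authors as 2 tables of one comparison. The submitters' processing notes name build GRCh37, bcl2fastq, DESeq2 1.18.1, HTSeq 0.9.1 and HISAT2 2.1.0, with no order or annotation release. One deposited table lists a mean signal for each group with a log2 fold change and p-values, per the file headers; the recovery below shows the means to be counts scaled by size factors. The deposited Tuxedo table holds group FPKM, a log2 fold change, a test score (not used) and q-values, per the file headers.

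Each such mean, deposited to 15 digits, can be written as a sum of 3 whole counts with 1 fixed weight per library. A search over whole numbers for means up to 20000 found exactly 1 solution for each of them. These are 99.6% of control and 99.5% of flotillin means above 0. The 172 genes above that limit in a group have no library values. Of 1000 altered means per group 0.70% and 0.60% had a solution. Altered means were drawn over low and high levels together, and the rate among high means, such as those of FAT1 and FAT2 in control, is not given. In most libraries the whole numbers show gaps or doubled values, so they need not be raw reads. Isolated zeros are kept in all results unless stated.

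A gene rose or fell where the authors' adjusted p was under 0.05. Limma 3.58.1 (R 4.3.3) was a second fit, with the trend and robust settings and a pseudocount of 1. Its p-values were adjusted by Benjamini-Hochberg over 15839 genes with a mean of at least 10. The fit was tried on simulated counts with the same dispersion for every gene. Those counts had no planted zeros and no outlying library, so they do not test how the fit handles either. Fold differences are between group means. The log2 fold changes deposited with the means are not log2 ratios of these means: PDGFRA has 1.48 with a control mean of 0. For each of the 9 members the deposited value lies nearer to 0 than the log2 ratio of the means. The members and lists were chosen with earlier results of these data known. All 9 members are named; of each partner list, up to 5 called genes per direction with the largest change; genes sharing a member's locus; and for each member with a mean of at least 100 the 2 genes most like it. Of the list symbols, 6 differ from the file's and were matched by gene ID (LATS1 and KRT18 among them, whose symbols the file gives to other transcripts). RefSeq promoters were listed for 5 members (GRCh38.p14); loci are in GRCh37, counted from 1. Python 3.11.15 was used with matplotlib 3.10.9, numba 0.67.0, pandas 2.3.3 and numpy 2.4.6.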

Additional observations from a re-analysis of the deposited data

How the results depend on the processing

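CELSR2 passed as lower under every alternative that gives a test. Members called lower, 2 in the authors' table, numbered 4 without library 3 of both groups and 1 to 3 with 1 library left out in turn; members called higher, 0 there, numbered 1 without library 3 of both groups and 0 to 0 with 1 library left out. Partner and pathway genes called higher, 6 of 55 in the authors' table, numbered 2 in the Tuxedo table, 12 without library 3 of both groups and 2 to 13 with 1 library left out, and those called lower, 6 in the authors' table, numbered 3 in the Tuxedo table, 9 without library 3 of both groups and 2 to 7 with 1 library left out. Over all tested genes the authors' table called 11.6% higher and 12.0% lower, and the Tuxedo table called 16.9% in either direction and 10.0% lower. Without library 3 of both groups limma called 23.6% of all genes higher and 20.5% lower. Of the fits with 1 library left out, the share over all genes is given only for that without control library 2 (5.76% lower). The spread of these counts is therefore not read as a result about the listed genes. With 1 library left out, the 13 called higher came without control library 3, and the lowest counts of either direction without flotillin library 1 or 2. FAT3, which passed nowhere, ranged from -0.16 to 0.064 on the log2 scale with 1 library left out, the positive value being that without control library 2. FAT4 ranged from 0.49 to 1.36, FAT1 from -1.43 to -0.66 and CELSR3 from -1.01 to -0.39 with 1 library left out. No member changed its side of the threshold with another pseudocount, another filter on low values where the gene was tested, or scaling by total counts. The causes were not tested. No paired analysis was possible because the recovered libraries carry no replicate numbers. DCHS2, at 1 to 3 counts per library, is limited by its low counts, and DCHS1 and FAT3, with means under 30, have wide intervals.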

Other observations

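The recovered whole numbers are unevenly filled. In control library 1 a count of 2 occurred in 25 genes, 6 in 17 genes and 9 in 20 genes, whereas 3 occurred in 1280 genes. In control library 2 the numbers fell smoothly, with 1327 genes at 2, 866 at 3, 646 at 4 and 497 at 5. In the other libraries 1 or 2 numbers were overfilled: 574 genes at 8 beside 365 at 7 in control library 3, 643 at 7 in flotillin library 1, 1182 at 4 in flotillin library 2 and, in flotillin library 3, 1640 at 3 and 377 at 10 beside 246 at 9. DCHS2 is the member whose counts of 1 to 3 lie in this range.

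Isolated zeros were spread over all libraries, with 4, 12 and 12 genes in control libraries 1 to 3 and 11, 12 and 10 genes in flotillin libraries 1 to 3. Of the 46 genes 40 were protein-coding. Beside FAT2, control library 2 lists CAPNS1, a calpain subunit gene, at 0 while another control library held 3871 normalized counts. By contrast, 8 cases had a library at 1 to 9 counts beside one of at least 200 normalized counts in the same group.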
